A study of Mus musculus with 24 samples.

Results

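Bone marrow of wild-type C57BL/6j mice treated with DMBA was compared directly with marrow of the same strain treated with TCDD, both taken 12 h after injection. DMBA (7,12-dimethylbenz(a)anthracene) is a methylated polycyclic aromatic hydrocarbon, and TCDD (2,3,7,8-tetrachlorodibenzo-p-dioxin) belongs to the chlorinated dioxins. The comparison held 3 arrays per agent, chosen by genotype, agent and time, which made 6 of the 24 arrays of the series. The mice were female, 6 weeks old and injected into the peritoneum, and neither group carried an engineered allele. The labels give 50 mg/kg once for all agents and no separate amount for TCDD, so it cannot be said from them that the doses matched. Each sample is labelled as a pool of 9, without saying of what, and nothing in the labels says that the 3 samples of a group came from separate animals, so the p-values measure only the spread between these samples. Every array set the marrow RNA in Cy3 against one common Cy5 reference, pooled from the marrow of wild-type mice given oil, with no dye swap. Expression is therefore given as the log2 ratio of marrow to reference, where 0 is the level of the reference after normalisation, and the difference DMBA minus TCDD is positive where the ratio was higher after DMBA.

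Both compounds bind the aryl hydrocarbon receptor (AhR), a cytosolic protein held in a complex with the HSP90 chaperone. Once bound, AhR enters the nucleus, pairs with ARNT and switches on genes that carry its short recognition motif, among them the cytochrome P450 genes Cyp1a1 and Cyp1b1 and the receptor's own repressor Ahrr. DMBA is a substrate of these P450 enzymes, which oxidise it to products that bind DNA, whereas TCDD is hardly metabolised. DNA damage stabilises the transcription factor p53, whose targets arrest the cell cycle, repair DNA or start cell death, and blood-forming marrow is known to be a target of DMBA toxicity. In whole marrow, fewer cells of a type and less RNA per cell cannot be told apart.

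Detection and agreement differed between the arrays. Cy3 signal was well above background for 67.2% to 78.1% of the probes on the DMBA arrays and for 38.8% to 64.6% on the TCDD arrays, with TCDD replicate 1 the lowest. Across genes the log ratios of DMBA replicates 1 and 2 correlated at r = 0.874, DMBA replicate 3 correlated with them at 0.427 and 0.339, and the TCDD pairs lay between 0.51 and 0.665, all against the one reference. DMBA replicates 1 and 2 shared a slide with an oil-treated array, DMBA replicate 3 was on another slide and the 3 TCDD arrays were on a further one. No slide held both agents, so slide and treatment cannot be told apart in the 6 arrays. Of the blood-forming genes on the array, 31 of 31 erythroid and 25 of 26 maturing neutrophil genes were well above background on all 6 arrays. So were 18 of 21 pro-B and pre-B genes and 16 of 24 megakaryocyte and platelet genes, which bore out the marrow label. Signal was above background on no array for 9 of 20 liver, 2 of 15 skeletal muscle and 1 of 12 adipocyte genes. It was above on all 6 arrays for 4 liver, 2 skeletal muscle and 4 adipocyte genes, and carry-over of these tissues was not tested. Of 3 oil-treated wild-type arrays, used only for orientation, oil replicate 1 stood apart, with a median log ratio of 3.47 over genes of G2 and M phase against 0 and 0.1 in oil replicates 2 and 3.

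Of 19528 genes tested, 1613 (8.26%) differed between the agents at an adjusted p under 0.05 by limma, 725 (3.71%) higher after DMBA and 888 (4.55%) higher after TCDD. Among the called genes, 154 were higher after DMBA and 252 higher after TCDD by more than 1 on the log2 scale. The genes with the largest differences were osteopontin and the platelet chemokine Ppbp on the DMBA side and the inducible heat shock genes Hspa1a and Hspa1b on the TCDD side. The 3 DMBA arrays and the 3 TCDD arrays did not overlap for 7745 genes (39.7%), 4287 (22%) in the DMBA direction and 3458 (17.7%) in the TCDD direction, and the median difference of all genes was 0.06. The call count rested on all 6 arrays: it was 0 without DMBA replicate 1, 2 or 3 or TCDD replicate 2, 2372 without TCDD replicate 1 and 600 without TCDD replicate 3, and it was 0 with slide as a random block in a fit of all 24 arrays (with 3844 to 5399 and 501 genes at an unadjusted p under 0.05). The direction of many genes depended on the normalisation. Median centring in place of loess moved the median of all genes by 0.51 and gave 10022 genes higher after DMBA and 260 higher after TCDD. Of the 1613 called genes, 677 then had the other sign, and 72 had it relative to the shift of all genes.

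**Figure D1:**
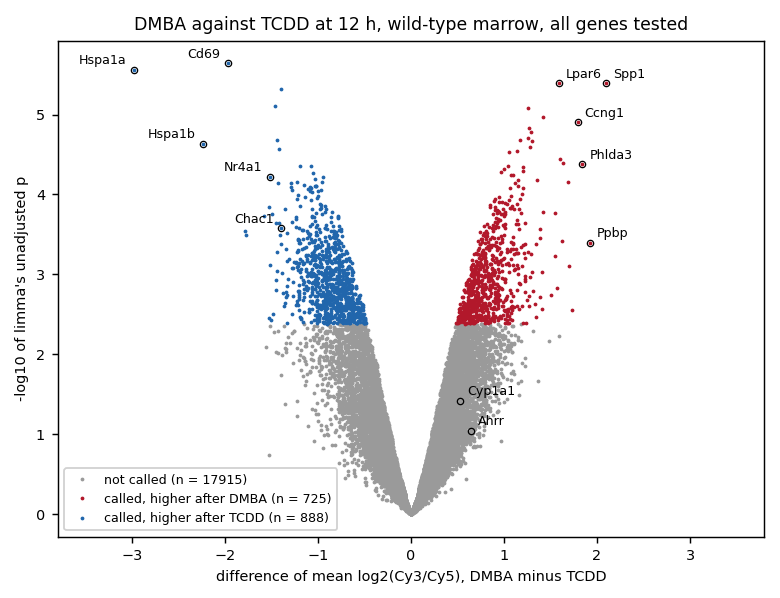
Difference DMBA minus TCDD (log2) of each of the 19528 genes tested on the x axis against -log10 of limma's unadjusted p on the y axis, with called genes in red (higher after DMBA) or blue (higher after TCDD). The 725 red and 888 blue genes lie on both sides of 0, with Hspa1a at -2.98 and Spp1 at 2.10 outermost, while Cyp1a1 and Ahrr lie among the grey genes that did not pass.

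The 12 largest differences in each direction were taken among called genes with signal well above background on all 6 arrays. Spp1 encodes osteopontin, a secreted phosphoprotein of bone and macrophages. Its log2 ratios were 0.66, 0.73 and 0.71 on the DMBA arrays and -1.74, -1.07 and -1.38 on the TCDD arrays. The groups did not overlap, and Spp1 was higher after DMBA by 2.10 ± 0.18 (SE, adjusted p = 0.0188), or 4.28-fold. Its oil-treated arrays read -0.05, 0.04 and -0.22, between the groups. Phlda3, a p53-induced inhibitor of AKT signalling, read 1.62, 1.64 and 1.57 after DMBA and -0.61, -0.36 and 0.27 after TCDD, a difference of 1.84 ± 0.22 (adjusted p = 0.0299). Ccng1, the cyclin G1 gene and a p53 target, read 1.07, 0.96 and 1.45 after DMBA and -0.59, -0.44 and -0.85 after TCDD, a difference of 1.79 ± 0.18 (adjusted p = 0.0269). For Spp1, Phlda3 and Ccng1 all DMBA arrays were above the reference.

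Ppbp, the platelet basic protein gene, was at 1.62, 1.53 and 0.8 after DMBA and at -1.17, -0.6 and -0.04 after TCDD, 1.92 ± 0.32 apart (adjusted p = 0.0302). The oil-treated arrays read 1.8, 1.65 and 1.31 for Ppbp, so here the TCDD arrays were the ones away from oil. Lpar6, a receptor for lysophosphatidic acid, differed by 1.59 ± 0.14 (adjusted p = 0.0188), with values of 0.9, 0.98 and 1.15 against -0.64, -0.44 and -0.66. Nck1, an adaptor protein of actin signalling, stayed at 0.12, 0.08 and 0.08 after DMBA and was at -1.49, -1.12 and -1.36 after TCDD, a difference of 1.42 ± 0.14 (adjusted p = 0.0258). The oil-treated arrays gave -0.37, -0.01 and -0.09 for Nck1, close to the DMBA arrays. Col1a1, Gapt, Cd38, S100a6, Cxcl12 and Errfi1 complete the set, with differences from 1.42 ± 0.21 for Errfi1 to 1.73 ± 0.40 for Col1a1.

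On the TCDD side, Hspa1a was at 3.17, 3.15 and 2.58 against 0.18, 0.24 and -0.47 after DMBA. The difference of -2.98 ± 0.25 (adjusted p = 0.0188) was a 7.91-fold higher level after TCDD. Cd69, an early activation marker of lymphocytes, read 1.99, 2.33 and 1.83 after TCDD and 0.1, 0.06 and 0.08 after DMBA, a difference of -1.97 ± 0.16 (adjusted p = 0.0188). Oil replicates 2 and 3 read 0.04 and -0.42 for Cd69, while oil replicate 1, the array that stood apart, read 3.79. Nr4a1, an orphan nuclear receptor induced within the first hours of stimulation, read 1.48, 2.14 and 1.54 after TCDD against 0.15, 0.18 and 0.28, a difference of -1.52 ± 0.19 (adjusted p = 0.0299). Car1, the carbonic anhydrase of red cells, read 0.14, 0.54 and 0.77 after TCDD against -0.9, -0.85 and -1.52, a difference of -1.58 ± 0.24 (adjusted p = 0.0301). The nuclear RNA Malat1 was higher after TCDD by 1.77 ± 0.29 on the log2 scale, but its difference was 0.24 towards DMBA when the Cy3 channel was used alone. Septin8, 1700086P04Rik, Arhgef25, Nfia, Ppp1r14c, H2bu2 and Hspa1b make up the rest of the TCDD set, and their differences ran from -2.24 ± 0.25 for Hspa1b to -1.46 ± 0.14 for H2bu2.

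**Figure D2:**
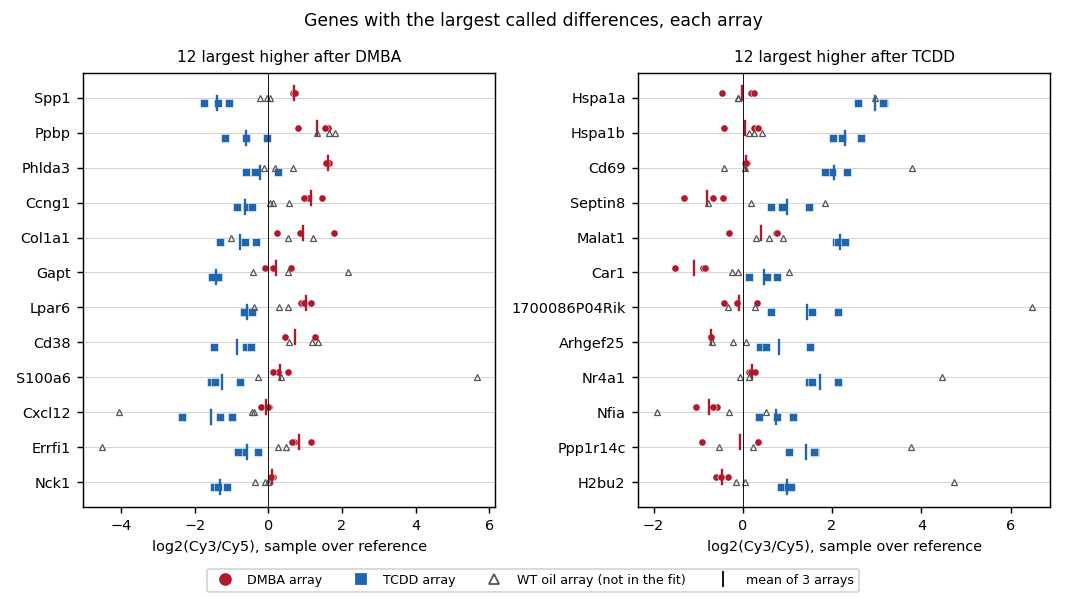
Log2 ratio to the reference on each array (x axis) for the 12 called genes with the largest difference in each direction, with DMBA arrays as red circles, TCDD arrays as blue squares, their means as bars and the oil-treated wild-type arrays, not part of the test, as open triangles. The DMBA and TCDD points of these genes do not overlap, and for Hspa1a the TCDD points sit between 2.58 and 3.17 against -0.47 to 0.24 after DMBA, while the far triangles of the right panel are oil replicate 1.

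The called genes were set against the oil-treated arrays to see which agent lay away from oil. Of the 725 genes higher after DMBA, oil replicates 2 and 3 were at or above the lowest DMBA array for 343 and 444 and at or below the highest TCDD array for 21 and 33. Of the 888 genes higher after TCDD, oil replicates 2 and 3 were at or above the lowest TCDD array for 24 and 30 and at or below the highest DMBA array for 330 and 737. Oil replicate 1 differed, lying at or above the lowest TCDD array for 606 of the 888 genes. DMBA replicate 3 correlated with oil replicate 3 at r = 0.697 across genes and DMBA replicates 1 and 2 with oil replicate 2, on their slide, at 0.403 and 0.429; the part of this in the counts was not tested.

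Few AhR target genes passed the test. Of 13 measured genes of the AhR battery, 2 were higher after DMBA, Cyp1b1 and Gpnmb, and none was higher after TCDD, where 3.71% of all genes were called in the DMBA direction. Cyp1b1 entered the test only through its DMBA arrays, so its call could go only one way and gives no support to the count. The median difference was 0.38 against 0.06 for all genes, and the differences ran from -0.32 to 0.69. Cyp1a1, which hydroxylates polycyclic aromatic hydrocarbons, was at 1.93, 1.76 and 1.91 after DMBA and at 0.87, 1.57 and 1.59 after TCDD. All 6 values were above those of the oil-treated arrays, 0.03, -0.11 and 0.48, and the difference between the agents of 0.53 ± 0.21 did not pass (adjusted p = 0.149). Its size varied with the background step: from the scanner's processed signals the Cyp1a1 difference was 2.11 (adjusted p = 0.155), and the authors' deposited table gives 3.91 for DMBA and 1.1 for TCDD against oil.

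Ahrr, the AhR repressor, read 1.84, 1.68 and 1.41 after DMBA and 0.19, 1.54 and 1.27 after TCDD, with TCDD replicate 1 the low array, and the difference of 0.64 ± 0.33 did not pass (adjusted p = 0.245). Tiparp, an ADP-ribosyltransferase that represses AhR, differed by 0.46 ± 0.19 (adjusted p = 0.167), and Nqo1, a quinone reductase, by -0.10 ± 0.19 (adjusted p = 0.76). Cyp1b1, the P450 that activates DMBA in marrow, was at 0.37, 0.46 and 0.48 after DMBA and at -0.01, -0.13 and -0.18 after TCDD. The oil-treated arrays read -0.06, -0.04 and 0.57 for Cyp1b1, so oil replicate 3 was above every DMBA array. The Cy3 signal of Cyp1b1 was well above background on the 3 DMBA arrays and on 0 TCDD arrays. A bound on this signal put Cyp1b1 at least 1.47-fold higher after DMBA. This bound sets the DMBA mean against the higher of the probe's own signal and the lowest signal above background on each TCDD array. The adjusted p of 0.0416 by limma does not support the direction, because the probe entered the test only through the DMBA arrays. Gpnmb, a glycoprotein of macrophages, was higher by 0.69 ± 0.16 (adjusted p = 0.0412), and under median centring, relative to the shift of all genes, the differences of Cyp1b1 and Gpnmb turned to -0.24 and -0.13. Of 6 genes of the AhR complex, the chaperone Hsp90aa1 was the one called, on the TCDD side, where 4.55% of all genes were called. Ahr itself differed by 0.35 (adjusted p = 0.28).

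The letters GCGTG, the core of the AhR recognition motif, were searched on both strands in the 250 bases before each start in the RefSeq promoters of GRCm38.p6. They stand in 28.2% of 32851 promoters and in 6 of 10 AhR battery genes found in that table. The promoters of the 2 P450 genes are shown with the motif in capitals, Cyp1a1 at chr9:57697363-57697612 on the plus strand and Cyp1b1 at chr17:79715062-79715311 on the minus strand. Each holds 1 match, and the Ahrr promoter at chr13:74292332-74292581 holds 3.
Cyp1a1: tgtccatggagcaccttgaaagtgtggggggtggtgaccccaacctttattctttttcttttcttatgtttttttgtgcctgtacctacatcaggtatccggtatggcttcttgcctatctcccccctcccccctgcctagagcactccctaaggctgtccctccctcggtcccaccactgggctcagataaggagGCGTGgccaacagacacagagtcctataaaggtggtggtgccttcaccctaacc
Cyp1b1: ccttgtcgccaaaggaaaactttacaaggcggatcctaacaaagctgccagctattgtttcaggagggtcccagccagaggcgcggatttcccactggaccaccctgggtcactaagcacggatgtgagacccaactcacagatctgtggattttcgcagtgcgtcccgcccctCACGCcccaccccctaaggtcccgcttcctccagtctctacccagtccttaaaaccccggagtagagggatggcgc

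Targets of p53 were higher after DMBA more often than after TCDD. Of 41 measured targets, 10 were called on the DMBA side and 3 on the TCDD side, where 3.71% and 4.55% of all genes were called, and the list median was 0.34 against 0.06 for all genes. The median log ratio of the list was 0.18, 0.17 and 0.32 on the DMBA arrays and -0.09, -0.09 and -0.16 on the TCDD arrays. On the oil-treated arrays it was 0.39, 0.12 and 0.08, so these spanned the DMBA arrays and lay above the TCDD arrays. Besides Phlda3 and Ccng1, the called genes on the DMBA side by the naming rule were Zmat3, an RNA-binding growth suppressor, at 1.13 ± 0.20 (adjusted p = 0.0303), and Dglucy at 1.14 ± 0.21 (adjusted p = 0.0308). Zmat3 read 0.46, 0.68 and 0.95 after DMBA and -0.78, -0.34 and -0.19 after TCDD. For Phlda3 and Ccng1, oil replicates 2 and 3 read 0.66 and 0.19 and 0.12 and 0.56, all below the lowest DMBA array.

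Named after their values were seen, Cdkn1a, the cell cycle inhibitor p21, read 0.71, 0.56 and 1.03 after DMBA and -0.63, 0.29 and -0.45 after TCDD, and its difference of 1.03 ± 0.25 just passed (adjusted p = 0.0497). Also chosen that way, the DNA polymerase Polk, which copies past bulky adducts, had a difference of 1.23 ± 0.24 (adjusted p = 0.0328), the ribonucleotide reductase subunit Rrm2b one of 1.01 ± 0.22 (adjusted p = 0.0389) and the co-stimulatory ligand Cd80 one of 1.22 ± 0.26 (adjusted p = 0.0356). Mdm2, which degrades p53, and the death effector Bax are central targets that did not pass, at 0.15 ± 0.15 (adjusted p = 0.549) and 0.34 ± 0.14 (adjusted p = 0.152). For the death receptor Fas the DMBA arrays were higher by 0.57 ± 0.13 (adjusted p = 0.0407). On the TCDD side were Pmaip1, the death activator NOXA, at -0.59 ± 0.14, the kinase Plk2 at -0.74 ± 0.18 and the reductase Dcxr at -0.75 ± 0.15 (adjusted p = 0.0461, 0.0478 and 0.0328), and Bbc3, the death activator PUMA, did not pass at -0.33 (adjusted p = 0.174). The Pmaip1 difference turned to 0.05 under median centring relative to the shift of all genes, and that of Dcxr to 0.13 when probes were averaged. Among 31 genes of cell death, 2 were higher after DMBA and 1 after TCDD, with a median of 0.14. These counts are near the 3.71% and 4.55% of all genes called on the DMBA and TCDD sides.

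Promoters of 32 of the 41 p53 targets were in the RefSeq table, and 10 held the p53 half-site within 250 bases before a start, against 7.13% of all promoters of that length. A gene with several starts counted if any window held the half-site, so the gene count and the share of promoters are not alike. The half-site was found for 3 of the 10 called targets with a promoter there, Cdkn1a, Ccng1 and Polk. A match is only a run of letters in this window, and the half-sites in capitals are shown for the cyclin gene and the p21 gene, Ccng1 at chr11:40755287-40755536 on the minus strand with 1 match and Cdkn1a at chr17:29090729-29090978 on the plus strand with 2.
Ccng1: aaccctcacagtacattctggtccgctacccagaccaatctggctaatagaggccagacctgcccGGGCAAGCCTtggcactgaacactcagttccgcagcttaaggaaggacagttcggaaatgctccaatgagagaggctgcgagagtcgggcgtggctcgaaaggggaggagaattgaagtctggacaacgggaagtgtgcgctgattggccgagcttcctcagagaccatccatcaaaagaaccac
Cdkn1a: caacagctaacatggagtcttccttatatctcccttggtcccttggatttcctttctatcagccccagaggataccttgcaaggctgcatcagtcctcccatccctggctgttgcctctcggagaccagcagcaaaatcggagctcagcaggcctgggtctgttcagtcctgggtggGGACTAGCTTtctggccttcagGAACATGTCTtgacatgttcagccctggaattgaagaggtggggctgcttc

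Genes of DNA repair and damage signalling gave 1 call on each side among 28 measured, with a median of 0.04. This is near the share of all genes called, 3.71% on the DMBA side and 4.55% on the TCDD side, so the count is no result about the list. Nabp1, a single-strand DNA binding protein, was higher after DMBA by 1.39 ± 0.22 (adjusted p = 0.0302), with values of 0.25, 0.12 and 0.73 against -1.1, -0.68 and -1.29. Brca2, which acts in repair by recombination, was higher after TCDD at -1.06 ± 0.16 (adjusted p = 0.0301), with values of 0.89, 0.69 and 1.12 after TCDD against -0.32, -0.09 and -0.07.

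Heat shock chaperones were called on the TCDD side. Of 23 measured genes, 7 were higher after TCDD and none after DMBA, where 4.55% of all genes were called in the TCDD direction. The list median was -0.32 against 0.06 for all genes, but under median centring it was 0.16 relative to the shift of all genes, so the direction of the list as a whole was not stable. Hspa1a and Hspa1b encode the inducible HSP70 proteins and are near-identical copies, so a probe for one may read both. Hspa1b read 2.22, 2.65 and 2.02 after TCDD and 0.25, 0.34 and -0.41 after DMBA, a difference of -2.24 ± 0.25 (adjusted p = 0.0282). Oil replicates 2 and 3 read -0.1 and -0.11 for Hspa1a and 0.24 and 0.13 for Hspa1b, near the DMBA arrays, and oil replicate 1 read 2.95 and 0.44. Over 22 settings the Hspa1a difference ran from -3.18 to -2.23 and never changed sign.

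Hsph1, an HSP110 nucleotide exchange factor of HSP70, was at 0.72, 0.47 and 0.33 after TCDD and at -0.86, -0.77 and -1.1 after DMBA, a difference of -1.42 ± 0.16 (adjusted p = 0.0291). Hsp90aa1, the inducible HSP90, read 0.58, 0.34 and 0.42 after TCDD and -0.64, -0.49 and -0.64 after DMBA, a difference of -1.03 ± 0.13 (adjusted p = 0.0299), but its reference signal was saturated on the 3 TCDD arrays and on none of the DMBA arrays, and a saturated reference makes a ratio read too high. The other 22 genes of the list had no saturated spot, and 6 of them were called. Hspd1 and Hspe1, the mitochondrial chaperonin pair, and Hspa4l, all named after their values were seen, were higher after TCDD at -0.96 ± 0.17, -0.59 ± 0.15 and -0.61 ± 0.14 (adjusted p = 0.0303, 0.0497 and 0.0418). Hsf1, the transcription factor that drives the heat shock genes, did not pass at -1.01 ± 0.25 (adjusted p = 0.0519), and neither did the constitutive Hspa8 at -0.53 ± 0.21 (adjusted p = 0.146) nor the co-chaperone Dnajb1 at -0.12 ± 0.13 (adjusted p = 0.583).

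The letters GAANNTTC, 2 inverted repeats of the heat shock element, were searched on both strands in the same windows and stand in 6.69% of all promoters. Of the heat shock genes 18 of 23 were in the table and 7 held the motif, among them Hspa1a, Hspa1b, Hspe1 and Hspd1 of the called genes. The Hspd1 window with the motif, chr1:55087933-55088182 on the minus strand, overlaps that of Hspe1. Their match is the same site read on opposite strands. A gene with several starts counted if any window held the motif, so the gene count and the share of promoters are not alike. The windows of Hspa1a, chr17:34972157-34972406, and Hspa1b, chr17:34959239-34959488, both on the minus strand, differ at 3 of 250 bases, and that of Hspe1 is at chr1:55087898-55088147 on the plus strand. They are shown with the motif in capitals because the pair had the largest and the chaperonin the smallest called difference of the list.
Hspa1a: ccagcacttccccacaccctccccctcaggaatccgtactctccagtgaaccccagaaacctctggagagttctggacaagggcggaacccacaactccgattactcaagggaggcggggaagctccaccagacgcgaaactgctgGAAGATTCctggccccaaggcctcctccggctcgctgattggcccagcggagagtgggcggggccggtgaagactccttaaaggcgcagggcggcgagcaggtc
Hspa1b: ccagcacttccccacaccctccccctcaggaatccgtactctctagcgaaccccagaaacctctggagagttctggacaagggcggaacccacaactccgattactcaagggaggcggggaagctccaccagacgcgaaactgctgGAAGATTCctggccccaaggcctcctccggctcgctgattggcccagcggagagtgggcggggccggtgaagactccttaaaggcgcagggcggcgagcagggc
Hspe1: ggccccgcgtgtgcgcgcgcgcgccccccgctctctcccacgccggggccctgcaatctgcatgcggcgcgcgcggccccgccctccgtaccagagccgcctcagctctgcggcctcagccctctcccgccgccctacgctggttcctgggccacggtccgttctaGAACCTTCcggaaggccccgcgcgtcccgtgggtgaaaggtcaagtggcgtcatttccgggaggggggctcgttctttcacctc

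**Figure D3:**
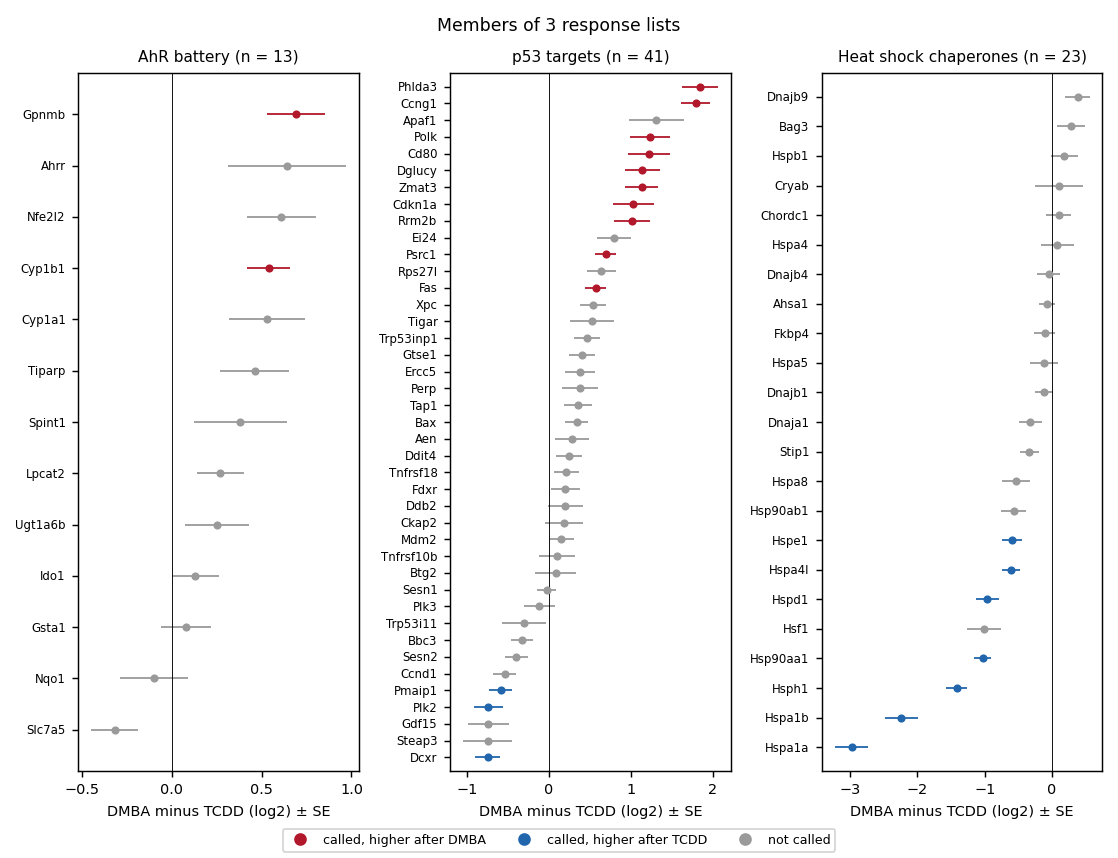
Difference DMBA minus TCDD (log2, x axis) of each measured gene of the AhR battery, the p53 targets and the heat shock chaperones, with its standard error as a bar and called genes in red (higher after DMBA) or blue (higher after TCDD). Gpnmb and Cyp1b1 are the 2 red genes of 13 in the AhR battery, the p53 targets run from -0.75 to 1.84 with 10 red and 3 blue, and the 7 blue heat shock genes end at -2.98 with Hspa1a.

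Immediate early genes, which respond to stimulation without new protein synthesis, were called on both sides. Of 24 measured, Nr4a1, Egr2 and Klf4 were higher after TCDD and Fosl2 after DMBA, against 4.55% and 3.71% of all genes, with a list median of 0.01; the single DMBA call is near that share. The zinc finger gene Egr2 read 1.83, 2.45 and 1.93 after TCDD and 0.52, 0.43 and 1.04 after DMBA, a difference of -1.41 ± 0.23 (adjusted p = 0.0302). Klf4 differed by -1.34 ± 0.23 (adjusted p = 0.0302) and the AP-1 subunit Fosl2 by 1.41 ± 0.32 (adjusted p = 0.0416). Fos itself did not pass at 1.59 ± 0.42 (adjusted p = 0.0587). Oil replicate 1 had a median of 2.32 over this list against 0.16 and 0.45 in oil replicates 2 and 3.

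Inflammatory cytokines and NF-kB targets gave 3 calls on each side of 29 measured, against 3.71% of all genes on the DMBA side and 4.55% on the TCDD side. Il6 read 1.02, 1.57 and 1.37 after TCDD and 0.2, 0.41 and 0.35 after DMBA, a difference of -1 ± 0.17 (adjusted p = 0.0302). Nfkbiz, a nuclear co-regulator of NF-kB that Il6 depends on, differed by -1.33 ± 0.24 (adjusted p = 0.0305), and the NF-kB subunit Relb by -0.69 ± 0.15 (adjusted p = 0.0378). The chemokines on the DMBA side act on myeloid and blood-forming cells: Ccl9 at 1.23 ± 0.19, Ccl6 at 1.10 ± 0.19 and Cxcl12, which holds stem cells in the marrow, at 1.5 ± 0.32 (adjusted p = 0.0302, 0.0302 and 0.0369). Cxcl12 read -0.2, 0.01 and 0 after DMBA and -1, -2.36 and -1.32 after TCDD, so the DMBA arrays were near the reference and the TCDD arrays below it. The list median of -0.15 became 0.33 under median centring relative to the shift. None of 31 interferon-stimulated genes was called by limma, with 7 at an unadjusted p under 0.05 and a median of 0.24.

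Stress genes regulated by NRF2 and by the integrated stress response gave few calls, where 3.71% of all genes were called on the DMBA side and 4.55% on the TCDD side. Of 22 NRF2 targets 3 were higher after TCDD and none after DMBA, although the list median was 0.14 towards DMBA. Osgin1 differed by -1.05 ± 0.13 (adjusted p = 0.0299) and Gclc, the catalytic subunit of the glutathione-making ligase, by -0.80 ± 0.15 (adjusted p = 0.0305). The ferritin gene Fth1 at -0.65 had a saturated reference signal on all 6 arrays. Of 24 genes of the integrated stress response, 2 were higher after TCDD and 1 after DMBA. Chac1, which breaks down glutathione, read 1.15, 0.96 and 1.43 after TCDD and 0.13, -0.17 and -0.63 after DMBA, a difference of -1.40 ± 0.22 (adjusted p = 0.0302). Ppp1r15a, the phosphatase subunit that ends this response, differed by -0.86 ± 0.16 (adjusted p = 0.0316), and Cebpb by 0.92 ± 0.14 on the DMBA side (adjusted p = 0.0302). Among 14 glucocorticoid-responsive genes, the metallothionein Mt2 at -1.19 ± 0.17, Cd163 at -0.74 ± 0.17 and Tat at -0.72 were higher after TCDD and Cebpd at 1.14 ± 0.13 after DMBA, and the Cd163 difference turned to 0.14 with the Cy3 channel alone.

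Erythroid genes were higher after TCDD, in 10 of 30 measured against 4.55% of all genes, and none was higher after DMBA. The list median was -0.51, with array medians of 0.19, 0.28 and 0.27 after TCDD and of -0.25, -0.11 and -0.06 after DMBA, but it became 0.17 under median centring relative to the shift and 0.20 with slide as a block in 24 arrays. Oil replicate 2 had a median of -0.14, within the DMBA arrays, oil replicate 3 had 0.3, just above the TCDD arrays, and oil replicate 1 had 2.94. Hemgn, a nuclear regulator of erythroid maturation, differed by -0.96 ± 0.14 (adjusted p = 0.0299), Icam4, a red cell adhesion protein, by -0.79 ± 0.14 (adjusted p = 0.0304), and Hemgn turned to 0.14 with the slide block in 24 arrays. Klf1, the master regulator of the erythroid programme, named after its value was seen, differed by -0.55 ± 0.13 (adjusted p = 0.0421). Of the 30 genes, 24 had no saturated spot, and 7 of these were called with a median of -0.42. The adult beta globin Hbb-bt was called at -1.43, but its Cy3 signal was saturated on 3 DMBA and 2 TCDD arrays and its reference on all 6, so its ratio gives no fold, and Cy3 of the alpha globin Hba-a2 was saturated on the 3 DMBA arrays.

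Genes of heme synthesis and iron were called mostly on the TCDD side, with 5 of 21 higher after TCDD and 1 after DMBA, against 4.55% and 3.71% of all genes. The single DMBA call is near that share. The list median of -0.38 became 0.19 under median centring relative to the shift. Alad, an early enzyme of the heme pathway, differed by -0.92 ± 0.18 (adjusted p = 0.0317). The iron transporter Slc11a2 differed by -0.87 ± 0.15 (adjusted p = 0.0303). Ireb2, the iron-sensing regulator that blocks ferritin translation, went the other way, with 0.15, 0.13 and 0.45 after DMBA and -0.89, -0.79 and -1.04 after TCDD, a difference of 1.15 ± 0.15 (adjusted p = 0.0299).

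Megakaryocyte and platelet genes were called on the DMBA side. Of 24 measured, 6 were higher after DMBA, against 3.71% of all genes, and none after TCDD, and 20 of 24 differences were positive, with a median of 0.60. The array medians were 0.39, 0.33 and 0.24 after DMBA, -0.31, -0.17 and 0.09 after TCDD, and 0.49, 0.36 and 0.32 on the oil-treated arrays, so the TCDD arrays were the low ones. Gp1ba, part of the platelet receptor for von Willebrand factor, read 1.1, 1.11 and 0.78 after DMBA and -0.38, -0.2 and 0.13 after TCDD, a difference of 1.15 ± 0.18 (adjusted p = 0.0302). Alox12, the platelet lipoxygenase, differed by 1.21 ± 0.21 (adjusted p = 0.0303), and Treml1, a receptor of platelet granules, by 0.85 ± 0.16 (adjusted p = 0.0308). The list median kept its sign in all settings tried.

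Myeloid lists also had positive medians with few calls. The shares to set them against were 3.71% of all genes on the DMBA side and 4.55% on the TCDD side. The maturing neutrophil list had a median of 0.53 and 2 calls of 24 genes, Retnlg at 1.39 ± 0.30 and the gelatinase Mmp9 at 1.03 ± 0.24 (adjusted p = 0.0376 and 0.0453), both higher after DMBA. The granulocyte progenitor list had a median of 0.52 and 1 call of 12, the repressor Gfi1 at 0.71 ± 0.17 (adjusted p = 0.0479), while the protease Elane did not pass at 0.67 (adjusted p = 0.0722) and myeloperoxidase, Mpo, differed by -0.02 ± 0.18. Of 31 monocyte and macrophage genes 4 were higher after DMBA and 1 after TCDD, with a median of 0.36. Ccr2, the chemokine receptor by which monocytes leave the marrow, read 0.46, 0.44 and 0.4 after DMBA and -1, -0.22 and -0.79 after TCDD, a difference of 1.10 ± 0.20 (adjusted p = 0.0308), and the monocyte surface gene Ly6c2 differed by 0.75 ± 0.17 (adjusted p = 0.0408). Of 23 eosinophil, basophil and mast cell genes 2 were called on the DMBA side and 1 on the TCDD side, against 3.71% and 4.55% of all genes. Eosinophil peroxidase, Epx, was higher after DMBA by 1.03 ± 0.22 (adjusted p = 0.0373) and the eosinophil ribonuclease Ear1 by 1.17 ± 0.24 (adjusted p = 0.0339), with the Ear1 reference saturated on the 3 TCDD arrays. The granzyme gene Gzmb went the other way at -0.71 (adjusted p = 0.0365). Xcr1, a receptor of cross-presenting dendritic cells, was the 1 call of 14 dendritic cell genes, higher after TCDD at -1.39 ± 0.27 (adjusted p = 0.0316). The counts in the neutrophil, granulocyte progenitor, eosinophil and dendritic cell lists are too small to set against the shares of all genes. The single TCDD call of the monocyte and macrophage list is near its share.

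Among lymphoid genes, most calls were in the mature B cell list. Of all genes, 3.71% were called on the DMBA side and 4.55% on the TCDD side. None of 21 genes of pro-B and pre-B cells was called by limma, with 9 at an unadjusted p under 0.05 and a median of 0.04, and 6 of 26 pan-B and mature B genes were higher after DMBA and 1 after TCDD, with a median of 0.38. The median log ratio of the pan-B list was 0.37, 0.34 and 0.22 after DMBA, -0.06, 0.11 and -0.27 after TCDD and 0.24 and 0.26 in oil replicates 2 and 3. Cd38, an ectoenzyme of B and other blood cells, read 0.44, 0.44 and 1.27 after DMBA and -0.6, -0.48 and -1.48 after TCDD, a difference of 1.57 ± 0.33 (adjusted p = 0.0347). Fcmr, the IgM Fc receptor, differed by 0.89 ± 0.17 (adjusted p = 0.0315), Ralgps2 by 0.65 ± 0.12 (adjusted p = 0.0308), and the complement receptor Cr2 went the other way at -0.88 ± 0.17 (adjusted p = 0.0322). Sdc1, the plasma cell marker CD138, was the 1 call of 9 plasma cell genes at 0.89 ± 0.17 (adjusted p = 0.0316). Of 22 T and NK cell genes, Cd3e of the T cell receptor complex was higher after TCDD at -1.22 ± 0.17 (adjusted p = 0.0299) and so was Tbx21 at -0.72, while the NK receptor Klrd1 was higher after DMBA at 0.87 ± 0.21 (adjusted p = 0.0469). The counts in the plasma cell and the T and NK cell lists are too small to set against the shares of all genes. Of 19 stem and progenitor genes none was called by limma, with 4 at an unadjusted p under 0.05 and a median of 0.05.

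Stromal and bone genes gave 7 calls on the DMBA side and 2 on the TCDD side of 24 measured, against 3.71% and 4.55% of all genes. The list median of 0.39 became -0.02 when signal above background was required on all 6 arrays, which 8 genes had. The DMBA calls were then 3. They were 2 with probes averaged or without the filter on dim probes, but 10 with processed signals, 12 with Cy3 alone and 13 with median centring. Some members, such as Col1a2 with 3 DMBA and 2 TCDD arrays above background, met the filter through the DMBA arrays. The count of 7 was therefore not independent of the filter. Col1a2, a chain of type I collagen, read 0.8, 1.5 and 0.66 after DMBA and -0.2, -0.81 and -0.88 after TCDD, a difference of 1.62 ± 0.27 (adjusted p = 0.0302). Its partner Col1a1 read 0.86, 1.77 and 0.23 against -0.35, -0.64 and -1.32, with DMBA replicate 2 the highest for both. The oil-treated arrays spread as widely for Col1a1, at -1.01, 1.22 and 0.52, and whether the amount of bone in the samples differed was not tested. On the TCDD side were the osteoclast phosphatase Acp5 at -0.77 ± 0.17 (adjusted p = 0.0372) and the intermediate filament gene Nes at -1.07 ± 0.22 (adjusted p = 0.0342). Adipoq, the fat cell hormone adiponectin, was the 1 call of 9 adipocyte genes, higher after DMBA by 0.99 ± 0.18 (adjusted p = 0.0304), and Plvap the 1 call of 17 endothelial genes, higher after TCDD at -0.69 (adjusted p = 0.0407). None of 9 skeletal muscle genes was called by limma, with 4 at an unadjusted p under 0.05, and of 8 measured liver genes Hp was higher after DMBA at 0.67 ± 0.16 and Creb3l3 and Tat after TCDD at -1.44 ± 0.28 and -0.72.

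**Figure D4:**
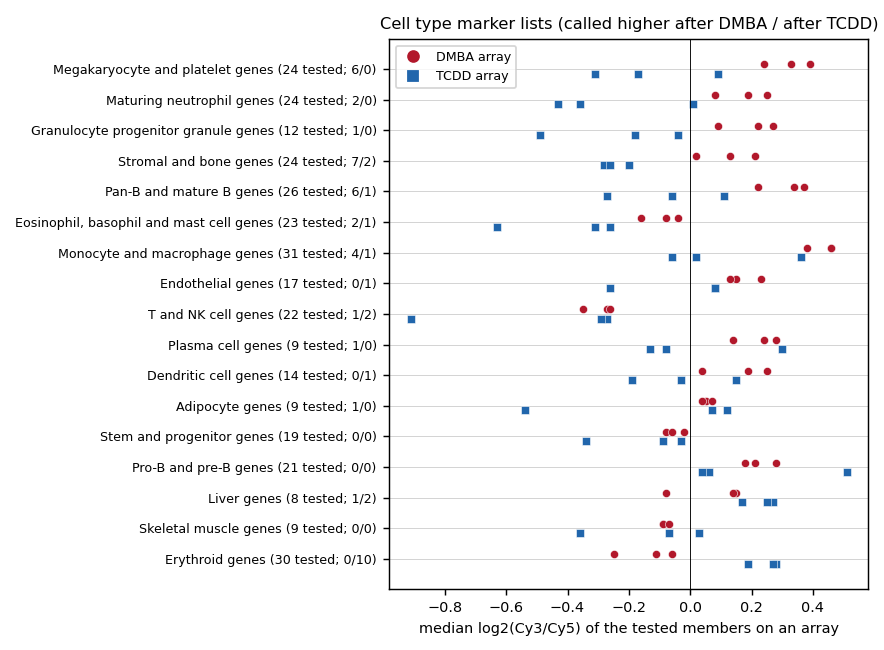
Median log2 ratio to the reference over the measured genes of each cell type list (x axis), 1 point an array, with DMBA arrays as red circles and TCDD arrays as blue squares; the counts beside each name are genes tested and genes called higher after DMBA and after TCDD. In the erythroid row the TCDD arrays lie at 0.19 to 0.28 and the DMBA arrays at -0.25 to -0.06, and in the megakaryocyte and platelet row the DMBA arrays lie at 0.24 to 0.39 and the TCDD arrays at -0.31 to 0.09.

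Proliferation genes gave few calls, against 3.71% of all genes on the DMBA side and 4.55% on the TCDD side. Of 31 S phase genes 2 were higher after TCDD, Ccne1 at -0.88 and Mcm6 at -0.75 (adjusted p = 0.0358 and 0.0373), with a median of -0.24 that became 0.41 under median centring relative to the shift. Of 30 genes of G2 and M phase, Birc5 at -0.62 and Cdca8 at -0.58 were higher after TCDD (adjusted p = 0.0426 and 0.0383), with a median of 0.08, and the differences of Birc5, Cdca8 and Mcm6 turned to 0.28, 0.03 and 0.04 with slide as a block in 24 arrays. The Birc5 reference was saturated on 2 TCDD arrays and 0 DMBA arrays, so its difference is not exact, and 1 call remained in that list among genes with no saturated spot. The counts of the S phase list and of the G2 and M phase list are near the share of all genes, so they are no result about these lists. The linker histone gene H1f0, known to accumulate in cells that stop dividing, read 1.42, 1.18 and 1.15 after TCDD and -0.18, 0.01 and -0.41 after DMBA, a difference of -1.44 ± 0.16 (adjusted p = 0.0278). Of 12 linker and replication-independent histone genes it and H3f3b were called, but the H3f3b reference was saturated on all 6 arrays, so its difference cannot be read, and 1 call remained among the 9 genes with no saturated spot. Cytosolic ribosomal protein genes gave 9 calls of 76, all on the TCDD side, with a median of -0.19, and all 9 had a saturated reference signal on the TCDD arrays. Among the 39 ribosomal genes with no saturated spot, 0 were called by limma, 7 were at an unadjusted p under 0.05 and the median was 0.06.

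Saturation touched few other calls. At least 1 of the 6 arrays had a saturated spot for 146 of 19528 genes, for 2 of the 725 higher after DMBA and for 34 of the 888 higher after TCDD. The reference was saturated on a TCDD array for 34 of these 34 and on a DMBA array for 21.

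Some genes were measurable after one agent only. Signal was well above background on the 3 DMBA arrays and on no TCDD array for 1176 genes, and for 0 genes the other way, beside the lower share of detected probes on the TCDD arrays. The scanner's background method code also differed between the agents. Bounds were computed for those of the 1176 genes with a RefSeq name and no saturated Cy3 spot, and 410 of these had a DMBA mean above the TCDD bound. These genes entered the test only through the group in which they were detected, so their adjusted p-values do not support the direction. The largest bounds were at least 2.70-fold for Srrm3, a splicing factor (adjusted p = 0.232), at least 2.05-fold for the secreted glycoprotein Fstl1 (adjusted p = 0.0302), at least 2.02-fold for the bone sialoprotein Ibsp (adjusted p = 0.065) and at least 1.75-fold for the cilium gene Tmem67 (adjusted p = 0.0389).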

How the data were processed

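The files used are Agilent 2-colour scanner outputs made with Feature Extraction 9.1.3.1 per the file headers, and the deposited columns hold spot and local background intensity in each channel, processed signal intensity and the log10 ratio. The submitters' processing notes name limma, of a version not given in these sources; the authors' deposited table holds log2 differences, which matched the difference of mean scanner log ratios at r = 0.999978 over 43532 features.

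Flagged outlier spots were left out, background was corrected with normexp (offset 50) and arrays were normalised by loess, giving log2 Cy3 over Cy5. The offset draws dim ratios towards 0, so differences of dim genes are understated. A gene stands for its brightest probe, tested where Cy3 was well above background on at least 3 of the 6 arrays and 2 log ratios per group existed; 143 tested genes had fewer than 6 values. Names came from RefSeq's GRCm38.p6 table by accession (24844 probes), symbol (6045) or synonym (1810), and otherwise from the file (8475). limma 3.58.1 in R 4.3.3 fitted the 6 arrays with lmFit and eBayes, and p-values were adjusted over all genes by Benjamini-Hochberg with a threshold of 0.05. The steps were tested on simulated data. The scanner's background method code was 7 on the DMBA arrays and 5 on the TCDD arrays, which bears on its processed signals and on the authors' table. Whether it also bears on the scanner's flag of signal well above background, used for detection, the filter and the bounds, was not tested.

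The text names AhR genes, the 12 largest called differences a side measured on all 6 arrays, up to 4 genes a list by smallest adjusted p with any called the other way, and the 4 largest bounds; other genes, such as Cdkn1a, Mdm2, Bax, Polk, Hsf1, Hspa8, Dnajb1, Fos, Mpo, Klf1 and Hba-a2, were chosen after their values were seen, and 1 gene the rule names is not reported here. Comparison, members and lists were chosen with earlier results of these data known. Deviations of the log ratios from the group mean correlated at -0.102, -0.034 and -0.131 between samples of the same replicate number, so the numbers were not taken to pair the samples. The other arrays of the series entered only alternative fits and, for oil-treated wild-type marrow, the levels given for orientation.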

Additional observations from a re-analysis of the deposited data

How the results depend on the processing

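The counts of called genes (1613 in all, 725 higher after DMBA, 888 higher after TCDD) moved with most choices, and the cause was not tested except where stated. They were 3120 (1433 and 1687) with the scanner's processed signals, 10282 (10022 and 260) with median centring, 8893 (4117 and 4776) with Cy3 alone, 1003 (447 and 556) without the filter on dim probes, 2668 (1156 and 1512) with the filter on all 6 arrays, 1006 (455 and 551) with probes averaged, 405 (323 and 82) with all 24 arrays, 3043 (2093 and 950) with all but oil replicate 1, 3702 (1923 and 1779) with slide as a random block in the 6 arrays, and 973 (455 and 518) with a trended, robust prior. They were 0 without background subtraction, with 4825 genes at an unadjusted p under 0.05, and 0 with slide as a block in 24 arrays, with 501 at that p and the same sign for 1598 of the 1613. The correlation within slides was -0.161 in the fit of 6 arrays and 0.779 in the fit of 24 arrays. No slide of the 6 arrays held both agents, so the higher count with the slide block there gives no support to the calls. With the replicate number as a block the counts were 800 (259 and 541), a pairing the data did not bear out. Leaving out 1 array each gave 0 to 2372 calls, 0 to 1177 higher after DMBA and 0 to 1195 higher after TCDD, with 3844 to 5399 genes at an unadjusted p under 0.05 where limma called 0. Chosen after seeing the data, normexp fitted on every spot gave 2278 (1275 and 1003), and with all 24 arrays 132 (106 and 26). Aquantile scaling leaves log ratios unchanged by construction.

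Median centring gave 34 of the 98 called named genes the other sign before the shift of all genes was taken out. Among named genes, relative to the shift of all genes, median centring reversed Birc5 to 0.04, Cdca8 to 0.08, Cyp1b1 to -0.24, Fth1 to 0.01, Gpnmb to -0.13, Pmaip1 to 0.05 and Rpl11 to 0. The slide block in 24 arrays reversed Birc5 to 0.28, Cdca8 to 0.03, Hemgn to 0.14, Mcm6 to 0.04 and Pmaip1 to 0, Cy3 alone reversed Cd163 to 0.14 and Malat1 to 0.24, and averaging probes reversed Dcxr to 0.13; the cause was not tested. Of 98 called named genes, 93 stayed called with processed signals, 80 with Cy3 alone, 71 with probes averaged, 59 with the replicate block, 50 without TCDD replicate 3, 47 with median centring, 23 with all 24 arrays, 14 with normexp on every spot and all 24 arrays, and 0 with the slide block in 24 arrays, without background subtraction and without DMBA replicate 1, 2 or 3 or TCDD replicate 2.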
